A study of Mus musculus with 4 samples.

Results

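Slc10a6 encodes the sodium-dependent organic anion transporter SOAT, a plasma membrane carrier of sulfated steroids, and belongs with Slc10a1, Slc10a2, Slc10a3, Slc10a4, Slc10a5 and Slc10a7 to the SLC10 family of the mouse. These 7 genes were taken by symbol from a table of 23282 genes. Slc10a6 was chosen by its fold change between dexamethasone and vehicle in these same libraries, and the other 6 genes were added by family name. Its difference between the groups is therefore given as a description, with no p-value.

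All libraries came from C2C12 myotubes, the multinucleated muscle cells that the female mouse myoblast line C2C12 forms when it fuses. The myotubes of both groups had been deprived of steroids, and they were then exposed for 2 h to vehicle (2 libraries) or to 1 µM dexamethasone (2 libraries), a synthetic glucocorticoid that activates the glucocorticoid receptor. RNA held in the washed chromatin pellet of isolated nuclei was sequenced, a fraction used to enrich transcripts that are still at their template. The share of finished transcripts retained in it was not measured. The labels do not say whether the libraries of a group came from separate cultures, and the p-values measure only the spread between these libraries.

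Steroid sulfates circulate as water-soluble forms that do not cross membranes freely. A cell that imports them through a carrier such as SOAT can remove the sulfate with steroid sulfatase and regain the free steroid. The best-known members of the family are bile acid carriers: Slc10a1 (NTCP) takes up bile acids into hepatocytes and Slc10a2 (ASBT) recovers them in the ileum. Slc10a4 sits on synaptic vesicles of neurons, Slc10a7 is a regulator of calcium handling and of glycosylation in the secretory pathway, and Slc10a3 and Slc10a5 are orphan members with no settled substrate.

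The start region of Slc10a6 is shown because, of the 3 members with enough reads to test, this gene alone differed strongly between the groups. A RefSeq window of 300 bases, from 250 before to 50 after the start, was held for 5 of the 7 members in the build GRCm38.p6, and that of Slc10a6 lies on the minus strand at chr5:103629354-103629653. Capitals mark the stretch most similar to the 15-letter glucocorticoid receptor motif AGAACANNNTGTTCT, which reads the same on both strands.

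Slc10a6: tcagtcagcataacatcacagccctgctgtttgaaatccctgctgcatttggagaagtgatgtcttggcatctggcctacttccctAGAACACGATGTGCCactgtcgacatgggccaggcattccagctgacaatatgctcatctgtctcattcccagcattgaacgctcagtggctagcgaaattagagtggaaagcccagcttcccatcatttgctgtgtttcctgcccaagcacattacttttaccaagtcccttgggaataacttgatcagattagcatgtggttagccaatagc

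The marked stretch runs from 164 to 150 bases before the start. It holds the half-site AGAACA intact and differs from the 12 fixed letters of the motif at 2 places, T13G and T15C, counted from 1 at the motif's 5′ end with the motif's letter first. A stretch with at most 2 differences was found in 1.84% of the 32851 RefSeq windows of this length, and AGAACA on either strand in 19.0% of them. In the windows of Slc10a1, Slc10a2, Slc10a4 and Slc10a7 the closest stretch had between 4 and 6 differences. At most 4 differences is no rarity, since 57.0% of all windows hold such a stretch. These matches describe letters only, and no binding was measured here.

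Total gene counts ranged from 19631435 in vehicle replicate 1 to 88596296 in dexamethasone replicate 2. All 11 myotube markers had more than 3 counts in each library, and each was higher in replicate 1 than in replicate 2 of both groups. Ttn was at 118082 and 41054 CPM in vehicle replicates 1 and 2, and at 113312 and 39928 CPM in those of dexamethasone. For Ckm the values were 53.6 and 6.98 CPM, and 50.6 and 7.72 CPM. Mymk differed least, at 175.8 and 173.3 CPM, and 208.2 and 207.8 CPM. The source of this difference was not tested. Vehicle replicate 1 stood apart in its neuronal transcripts, with 245 counts of Syt1, 160 of Snap25 and 30 of Rbfox3 against at most 17, 4 and 3 in the other libraries. The 5 neuronal markers summed to 23.4 CPM there and to between 0.184 and 0.434 CPM elsewhere, and Slc18a3 was at 0 in all libraries. Their part in any difference was not tested, and values without that library are given below for Slc10a6, Aff1, Slc44a5, Slc35f1 and Mapk10. CPM here is a gene's count scaled by TMM to a common library total. Nr3c1, the glucocorticoid receptor gene, was at 238 and 180 CPM with vehicle and at 121 and 83.7 CPM with dexamethasone, below in both libraries (log2 fold change -1.03, SE 0.251). It did not pass in edgeR (adjusted p 0.430) but passed with DESeq2's Wald test and with the replicate block.

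Slc10a6 (ENSMUSG00000029321) had 14 counts in vehicle replicate 1 and 27 in vehicle replicate 2, against 804 in dexamethasone replicate 1 and 1946 in dexamethasone replicate 2. Both dexamethasone libraries lay far above both vehicle libraries. In such bulk samples more cells with the transcript and more transcript per cell cannot be told apart. Scaled to library size, the vehicle libraries held 0.751 CPM (exact 95% counting interval 0.410 to 1.26) and 0.711 CPM (0.469 to 1.03). The dexamethasone libraries held 26.8 CPM (25.0 to 28.7) and 20.8 CPM (19.9 to 21.8). Counting error was thus wide in the vehicle group and narrow in the dexamethasone group, and the intervals cover counting error only.

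The mean level of Slc10a6 was 0.731 ± 0.0279 CPM with vehicle and 23.8 ± 4.23 CPM with dexamethasone (SD, n = 2 each), a ratio of means of 32.6. The fitted log2 fold change was 5.03 (SE 0.251). Between the libraries with replicate number 1 the ratio was 35.7 (exact 95% counting interval 21.2 to 65.6). Between those with number 2 it was 29.3 (20.1 to 44.6). These intervals overlap, so a difference in size between the pairs was not detectable at the vehicle depth. Without vehicle replicate 1, the library with neuronal transcripts, the log2 fold change was 5.06.

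**Figure D1:**
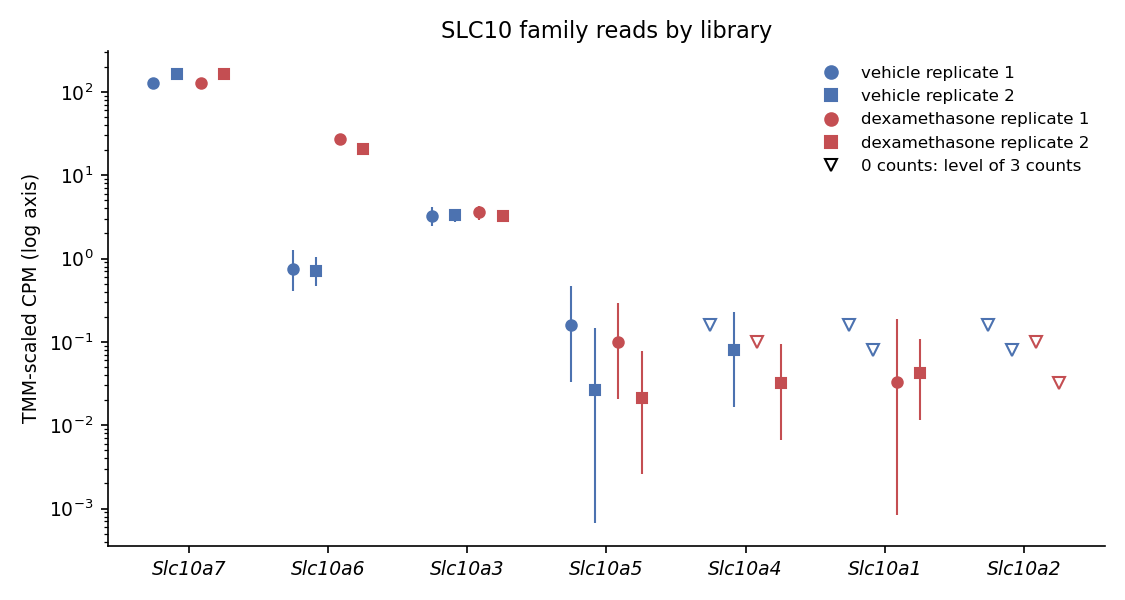
TMM-scaled CPM on a log axis for the 7 SLC10 genes in each of the 4 libraries, with exact 95% counting intervals as bars; open triangles stand at the level of 3 counts for libraries with 0 counts. Slc10a6 lies at 0.751 and 0.711 CPM with vehicle and at 26.8 and 20.8 CPM with dexamethasone, while the libraries of Slc10a3 and Slc10a7 overlap between the groups.

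Slc10a6 also moved within the order of all genes. In the vehicle libraries 46.7% and 48.0% of the 23282 genes had a lower CPM than Slc10a6, where many genes have no reads at all. In the dexamethasone libraries 76.5% and 73.3% had a lower one. By fitted log2 fold change it was number 8 of 13285 tested genes. The place depended on the setting and ran from 5 with limma-voom to 25 without vehicle replicate 2.

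Of the 7 members, 3 passed the filter on low counts (Slc10a3, Slc10a6 and Slc10a7). edgeR's quasi-likelihood test called 1 of these 3, Slc10a6, against 0.0376% of all genes tested for a rise. That contrast chose the gene, so nothing is read from this count. In the other 2 tested members the groups overlapped, beside 27.9% of all genes tested whose groups did not overlap in either direction.

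Slc10a7 (ENSMUSG00000031684) was the most read member in every library. It had 2400 and 6156 counts with vehicle, and 3855 and 15366 with dexamethasone, or 129 and 162 CPM against 129 and 165 CPM. Its libraries sorted by replicate number and not by treatment: both replicate 1 libraries were low and both replicate 2 libraries were high. The log2 fold change was 0.01 (SE 0.197, 95% interval -0.51 to 0.53), with an edgeR adjusted p of 1.00 after rounding. On the linear scale this interval runs from a ratio of 0.702 to one of 1.45. Within replicate number 1 the ratio of dexamethasone to vehicle was 0.999 (counting interval 0.949 to 1.05), and within number 2 it was 1.01 (0.985 to 1.05). Its direction depended on the scaling, with a log2 fold change of -0.03 when library size alone was used.

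Slc10a3 (ENSMUSG00000032806), an orphan member, had 60 and 126 counts with vehicle and 107 and 304 with dexamethasone. That is 3.22 and 3.32 CPM against 3.57 and 3.25 CPM, a range in which the groups overlap. edgeR put the difference at 0.06 on the log2 scale (SE 0.238, 95% interval -0.57 to 0.69), at an adjusted p of 1.00 after rounding. The within-number ratios were 1.11 (counting interval 0.801 to 1.55) and 0.981 (0.794 to 1.22). In the GENCODE M21 annotation Slc10a3 overlaps Ubl4a, a ubiquitin-like protein gene, on the same strand, so how reads from the overlap were assigned is uncertain. Ubl4a had a log2 fold change of -0.02 (SE 0.317).

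The other 4 members were at or near 0. Slc10a5 (ENSMUSG00000058921), the orphan member whose annotated exons cover the whole of its 3923-base span, had 3 and 1 counts with vehicle and 3 and 2 with dexamethasone. Slc10a4 (ENSMUSG00000029219) had 0 and 3 counts with vehicle and again 0 and 3 with dexamethasone. Its count was 0 in vehicle replicate 1, the library with neuronal transcripts. Slc10a1 (ENSMUSG00000021135), the hepatocyte bile acid carrier, had 0 and 0 counts with vehicle and 1 and 4 with dexamethasone. The 4 counts fell in the deepest library, where they amount to 0.0428 CPM, less than the 0.161 and 0.0790 CPM that 3 counts would make in the vehicle libraries.

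Slc10a2 (ENSMUSG00000023073), the ileal carrier, had 0 counts in all 4 libraries. Taking 3 counts as the limit that a count of 0 allows, its level could reach 0.161, 0.0790, 0.100 and 0.0321 CPM in vehicle 1, vehicle 2, dexamethasone 1 and dexamethasone 2. The upper ends of the two-sided exact interval are 0.198, 0.0972, 0.123 and 0.0395 CPM. No fold change is given for these 4 genes, and a difference in them was not detectable at this depth. Slc10a4l, a transcribed pseudogene in RefSeq that is not a member, was also at 0 throughout. Of 5 hepatocyte markers, Alb and Fgb were at 0 in every library, and Apoa1, Apob and Ttr had at most 5 counts, with the 5 together at 0 to 0.0527 CPM with vehicle and 0.0749 to 0.100 CPM with dexamethasone. Of 5 enterocyte markers Fabp6 and Cdx2 were at 0 in every library and Fabp2 had at most 1 count. Lct and Vil1 were read in all libraries, and the 5 together made 1.08 to 2.63 CPM with vehicle and 0.824 to 2.30 CPM with dexamethasone.

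The levels of different genes were compared per kilobase, first of exon and then of whole gene span, because it is not stated whether intronic reads were counted. Per kilobase of exon, Slc10a7 led with vehicle at 15.4 ± 2.51 CPM, followed by Slc10a3 at 1.62 ± 0.0356 and Slc10a6 at 0.344 ± 0.0131 (SD, n = 2 each). These 3 levels were set apart by more than their spread. With dexamethasone Slc10a7 was at 15.5 ± 2.69, Slc10a6 at 11.2 ± 1.99 and Slc10a3 at 1.69 ± 0.110 CPM per kilobase of exon. Slc10a6 had passed Slc10a3 in both libraries, and the libraries of Slc10a6 (12.6 and 9.81) lay below those of Slc10a7 (13.6 and 17.4) with a gap smaller than either SD.

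The order depended on the length used. Per kilobase of gene span, Slc10a3 was at 0.791 ± 0.0174 and Slc10a7 at 0.647 ± 0.105 CPM with vehicle, while Slc10a6 was at 0.0309 ± 0.00118. With dexamethasone Slc10a6 led at 1.01 ± 0.178, ahead of Slc10a3 at 0.825 ± 0.0537 and Slc10a7 at 0.652 ± 0.113. The libraries of Slc10a6 (1.13 and 0.879) lay above those of Slc10a3 (0.863 and 0.787) with a gap smaller than either SD. Slc10a6 thus went from last of the 3 to either first or second, by span or by exon.

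**Figure D2:**
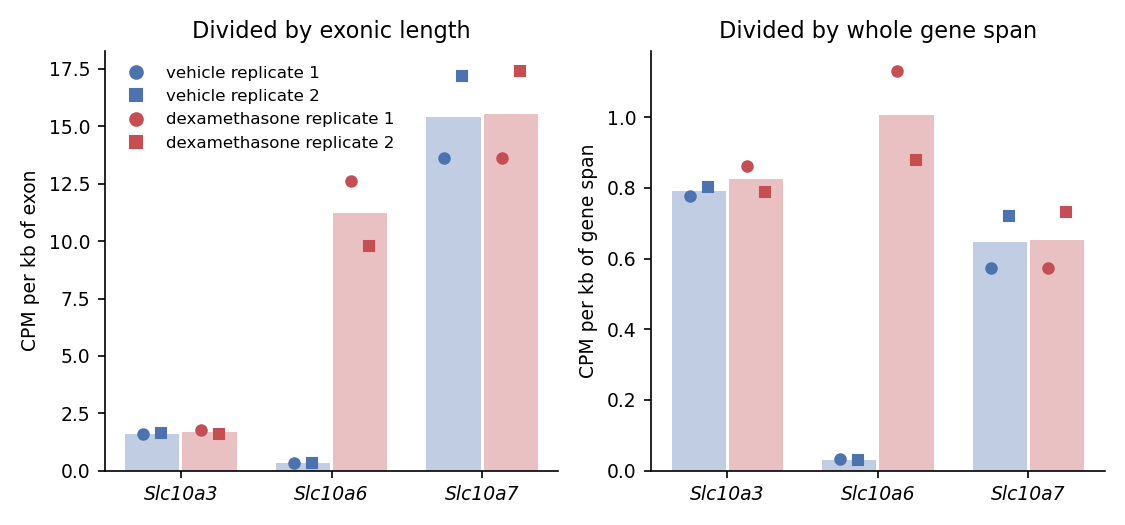
Level of the 3 tested members as TMM-scaled CPM per kilobase of exon (left) and per kilobase of gene span (right); bars are means of 2 libraries and points are the libraries. Slc10a6 goes from 0.344 to 11.2 CPM per kilobase of exon, below Slc10a7, and from 0.0309 to 1.01 per kilobase of span, above both others.

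As a share of all reads that fell in the 7 members, Slc10a6 took 0.565% in vehicle replicate 1 (95% Wilson interval 0.337% to 0.947%) and 0.428% in vehicle replicate 2 (0.294% to 0.622%). Its share was 16.9% (15.8% to 17.9%) for dexamethasone replicate 1 and 11.0% (10.6% to 11.5%) for dexamethasone replicate 2. The share was higher in replicate number 1 of the dexamethasone group, where Slc10a6 itself was higher (26.8 against 20.8 CPM) and Slc10a7, the main other source of reads, was lower (129 against 165 CPM).

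Among all 379 genes of the table whose symbol starts with Slc and a digit, the solute carriers, 233 were tested. Their median log2 fold change was -0.04, against -0.0016 over all genes tested, and edgeR called 1 of the 233, Slc10a6, which was chosen by this contrast, so nothing is read from that call. Slc39a14 joined it with no filter beyond 1 count, and limma-voom called 0 carriers. DESeq2's Wald test called 241 of 17880 genes higher and 56 lower, among them 6 of 344 carriers higher and 0 lower. The replicate block called 12.7% of all genes tested in either direction, and of the 233 carriers 15 higher and 11 lower. In the main fit, of the 232 carriers other than Slc10a6, 95 were above 0 and 137 below. In 29 of them both dexamethasone libraries were above both vehicle libraries, which is 12.5%, beside 15.0% of all genes tested. In 34 they were below, or 14.7%, beside 12.9%. By CPM per kilobase of exon Slc10a6 stood at place 204 and 200 of the 379 in the vehicle libraries and at place 35 and 52 in the dexamethasone libraries.

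After Slc10a6 the carrier with the largest fitted rise was Slc39a14, a zinc, iron and manganese importer. It was at 80.8 and 98.3 CPM with vehicle and 330 and 324 CPM with dexamethasone. This is a log2 fold change of 1.87 (SE 0.153), and edgeR gave an adjusted p of 0.117. Slc35f5 was at 1.04 (SE 0.145), the mitochondrial carrier Slc25a30 at 1.00 (SE 0.216) and the choline transporter Slc44a1 at 0.89 (SE 0.149). In each of these 4 carriers both dexamethasone libraries exceeded both vehicle libraries, but none passed edgeR without a block when all libraries were used and low counts filtered, with adjusted p between 0.117 and 0.344. All 4 passed with DESeq2's Wald test and with the replicate block. Slc39a14 also passed with no filter beyond 1 count (adjusted p 0.0458) and without vehicle replicate 2 (0.0115). At the other end the log2 fold changes were -2.39 for Slc44a5, -0.80 for Slc35f1, -0.66 for Slc9a3r1 (a scaffold protein gene, not a carrier), -0.65 for Slc8a2 and -0.59 for Slc27a3. The values of Slc44a5 and Slc35f1 rest on vehicle replicate 1, the library with neuronal transcripts. That library had 58 counts of Slc44a5 against 7, 12 and 21 in the others, and 2.04 CPM of Slc35f1 against 0.501, 0.634 and 0.760. Without it their log2 fold changes turned to 0.68 and 0.49. That of Slc8a2 was 0.05 without dexamethasone replicate 2, and that of Slc27a3 was -0.0014 without vehicle replicate 2. Slc9a3r1 stayed between -0.80 and -0.51 under every alternative.

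**Figure D3:**
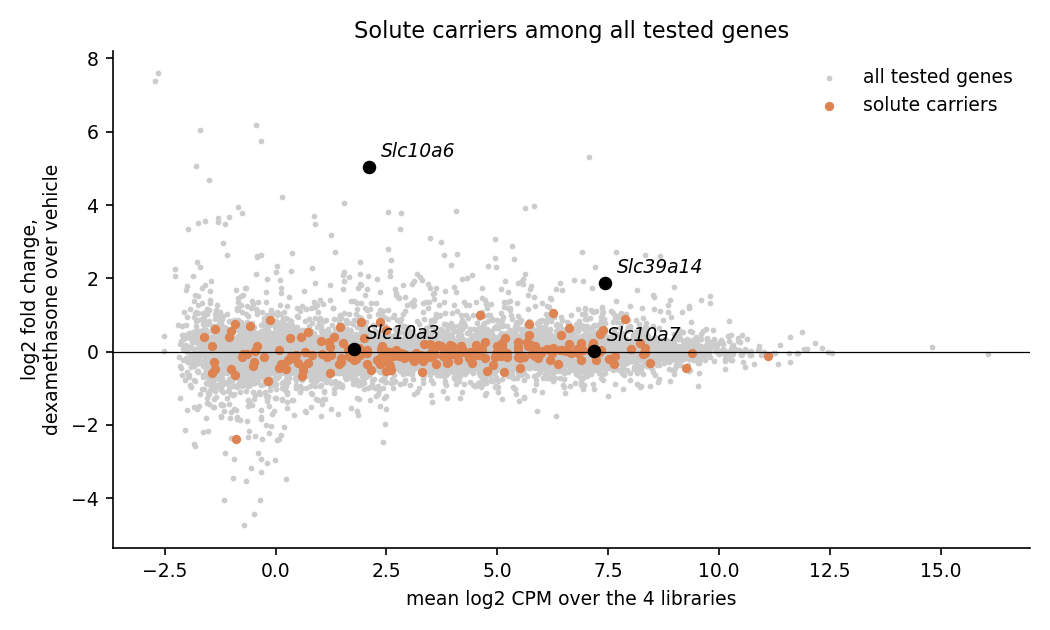
Log2 fold change of dexamethasone over vehicle against the mean log2 CPM of the 4 libraries, for all 13285 tested genes in grey and the 233 solute carriers in orange. Slc10a6 stands at 5.03, apart from Slc39a14 at 1.87, and Slc10a3 and Slc10a7 lie at the zero line.

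Lists of genes that make, remove, carry or sense steroid sulfates, steroids and bile acids were examined next. Together they held 98 genes, of which 96 were in the table and 49 were tested. None was called by edgeR in either direction, beside 0.0376% of all genes tested. The median log2 fold change was -0.07. In 7 of them (14.3%) the dexamethasone libraries were above both vehicle libraries, beside 15.0% of all genes tested. In 9 (18.4%) they were below, beside 12.9%. With the replicate number as a block edgeR called 6 of the 49 higher and 4 lower, 20.4% in all, beside 12.7% of all genes tested. The 6 were Sumf1, Slc35b3, Slco3a1, Abcb1b, H6pd and Hsd17b11, and the 4 were Papss1, Abcc1, Abcc4 and Abcc5.

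Of 22 genes of sulfation and desulfation 10 were tested, with a median log2 fold change of -0.08 and 4 above 0. Steroid sulfatase itself (Sts) and Sult1c1 were not analysed here. Most sulfotransferases had too few reads for a test, and Sult1e1, the estrogen sulfotransferase, had 0 counts in all libraries. The largest values above 0 were those of Slc35b3, a carrier of the sulfate donor PAPS into the Golgi (0.26, SE 0.157), Sumf1, the activator of sulfatases (0.25, SE 0.291), and Bpnt2, a Golgi phosphatase of the PAPS by-product (0.22, SE 0.206). The largest below 0 were Papss2 (-0.68, SE 0.512), Papss1 (-0.40, SE 0.206) and Sult2b1 (-0.28, SE 0.402). Papss1 and Papss2 encode the PAPS synthases. All 95% intervals of these 6 values included 0. Papss2 had at most 0.896 CPM in any library, and Sult2b1 at most 0.804 CPM.

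Of 29 carriers of steroid conjugates, bile acids and organic anions 14 were tested, with a median of 0.0085 and 8 above 0. Abcb1b, a drug efflux pump gene, had 18.8 and 16.9 CPM with vehicle and 31.1 and 24.1 CPM with dexamethasone. On the log2 scale the difference was 0.63 (SE 0.192), at an edgeR adjusted p of 0.629. Slco1a5 was at 0.91 (SE 0.400) from 10 and 24 counts with vehicle and 27 and 121 with dexamethasone, and Slco3a1, an organic anion carrier read at 297 to 434 CPM, was at 0.37 (SE 0.151). Abcb1a (-0.41, SE 0.569), Abcc1 (-0.31, SE 0.230) and Abcc4 (-0.31, SE 0.191), which encode efflux pumps, had the lowest values. Abcb1a was read at no more than 1.21 CPM in any library.

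Of 29 genes of steroid interconversion 18 were tested, with a median of -0.02 and 8 above 0. H6pd, which supplies NADPH to 11β-hydroxysteroid dehydrogenase in the endoplasmic reticulum, had 27.8 and 38.9 CPM with vehicle and 50.6 and 61.2 CPM with dexamethasone. The groups did not overlap, and edgeR gave a log2 difference of 0.74 (SE 0.222) at an adjusted p of 0.608. Hsd11b1, the enzyme that regenerates active glucocorticoids, was chosen after its values were seen: it had 7.29 and 7.11 CPM with vehicle and 6.17 and 7.52 CPM with dexamethasone, a log2 fold change of -0.07 (SE 0.204). Hsd17b11 (0.54, SE 0.225) and Hsd17b14 (0.28, SE 0.481) had the next largest values above 0, and Akr1c14 (-0.90, SE 0.576), Hsd17b13 (-0.46, SE 0.446) and Srd5a2 (-0.45, SE 0.400) the largest below. Akr1c14, Srd5a2 and Hsd17b14 had at most 0.922, 0.643 and 0.364 CPM in any library.

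Of 18 genes of bile acid synthesis and sensing 7 were tested, with a median of -0.23 and 1 above 0, Cyp46a1 at 0.04 (SE 0.494). The next were Amacr at -0.20 (SE 0.179) and Cyp27a1, the sterol 27-hydroxylase gene, at -0.22 (SE 0.329). The lowest were Acox2 (-0.66, SE 0.349), Slc27a5 (-0.29, SE 0.555) and Baat (-0.24, SE 0.969). Apart from Amacr, each of these named genes had at most 2.29 CPM in any library, and 6 of the 18 listed genes had 0 counts throughout.

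The genes whose profile over the 4 libraries was most like that of Slc10a6 were then found, by the Euclidean distance between log2 CPM values (prior count 2) centred on each gene's mean. Among 13284 other tested genes the nearest was Fkbp5, a co-chaperone of steroid receptors, at a distance of 0.383. It went from 21.4 and 21.6 CPM with vehicle to 1018 and 696 CPM with dexamethasone. Next came Ctla2a, a protease inhibitor gene, at 0.630, Errfi1, a feedback inhibitor of the EGF receptor, at 0.993, the receptor tyrosine kinase gene Mertk at 1.04, Serpina3n, a secreted serpin gene, at 1.05 and the transcription factor gene Wt1 at 1.13. Ctla2a, Serpina3n and Wt1 had at most 3 counts in either vehicle library, so their distances depend on the prior count. Slc10a7 was at 4.96, equal after rounding to the median of all genes, and Slc10a3 was at 4.88.

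In Fkbp5, Ctla2a, Errfi1 and Mertk, as in Slc10a6, dexamethasone replicate 1 was above dexamethasone replicate 2, and in Serpina3n and Wt1 it was below. These genes were picked for likeness over the same libraries, so nothing is read from a shared order. The RefSeq windows of Fkbp5, Ctla2a, Errfi1, Mertk and Serpina3n held no stretch as close to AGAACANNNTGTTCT as that of Slc10a6, with 3 to 6 differences at best. A window of Ctla2a and that of Serpina3n each held 1 match to AGAACA on either strand. The windows of Fkbp5, Errfi1 and Mertk held none.

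**Figure D4:**
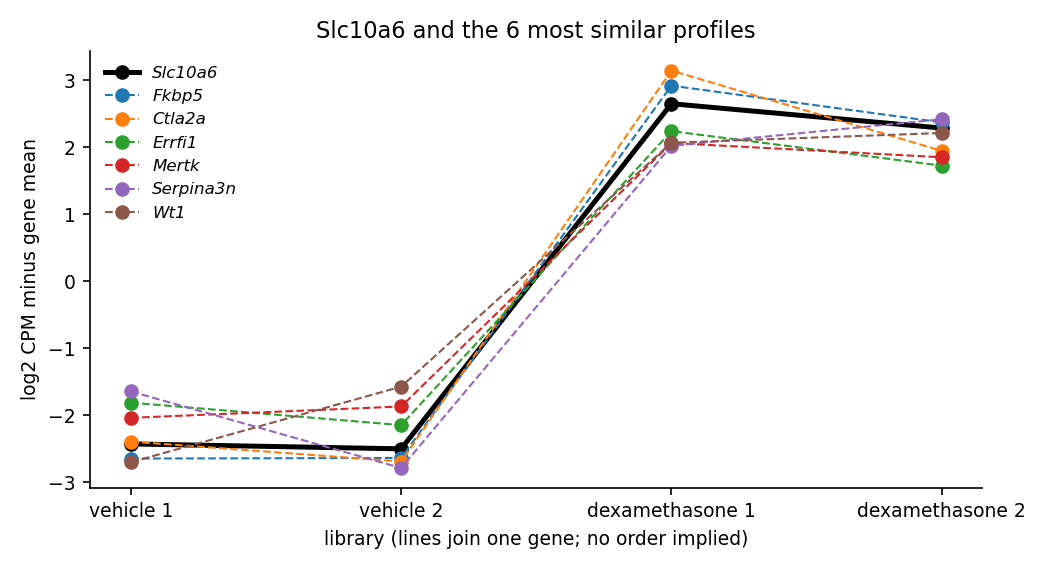
Log2 CPM minus each gene's mean over the 4 libraries for Slc10a6 (black) and the 6 tested genes with the most similar profile; lines join the values of a gene. Fkbp5, at a distance of 0.383, runs closest to Slc10a6.

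The genes next to Slc10a6 on the chromosome were examined as well, in the order of GENCODE M21. The nearest gene on the far side of its start, 1700016H13Rik, had 0 counts in all libraries. Beyond it lies Aff1, a gene of the super elongation complex on the opposite strand, with 194 and 215 CPM with vehicle and 513 and 424 CPM with dexamethasone. The groups did not overlap, and the fitted log2 difference was 1.20 (SE 0.159, 95% interval 0.78 to 1.62). Aff1 did not pass in edgeR over all genes (adjusted p 0.146), but it passed with DESeq2's Wald test (adjusted p 5.21e-06) and with the replicate block (0.000781). Without vehicle replicate 1 its log2 fold change was 1.13.

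On the near side, beyond the 3′ end of Slc10a6, lies Ptpn13, a tyrosine phosphatase gene on the opposite strand, with 86.8 and 86.0 CPM with vehicle and 110 and 91.8 CPM with dexamethasone (log2 fold change 0.22, SE 0.142). Among the other 7 neighbours the values were 0.03 for Wdfy3, 0.31 for Arhgap24, -0.67 for 4930429D17Rik, -0.35 for Klhl8, -0.46 for Hsd17b13, 0.54 for Hsd17b11 and -2.30 for Mapk10. Mapk10 rests on vehicle replicate 1, with 71 counts there and 12, 17 and 26 in the others, and turned to 0.35 without it. Hsd17b13 turned to 0.16 without vehicle replicate 2, and 4930429D17Rik was at -0.09 without dexamethasone replicate 2. None of the 9 neighbours that were tested passed in edgeR without a block, and the interval of Aff1 was the only one of them that excluded 0. With the replicate block Arhgap24 (adjusted p 0.0111), Hsd17b11 (0.0148) and Klhl8 (0.0339), the last of them lower, passed beside Aff1. The same fit called 12.7% of all genes tested in either direction. The neighbours of Slc10a3 (Lage3, Ubl4a, Fam3a and Ikbkg) had values between -0.02 and 0.17. Those of Slc10a7 (Rbmxl1, Lsm6 and Zfp827, with Pou4f2 too low to test) had values between -0.06 and 0.23.

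**Figure D5:**
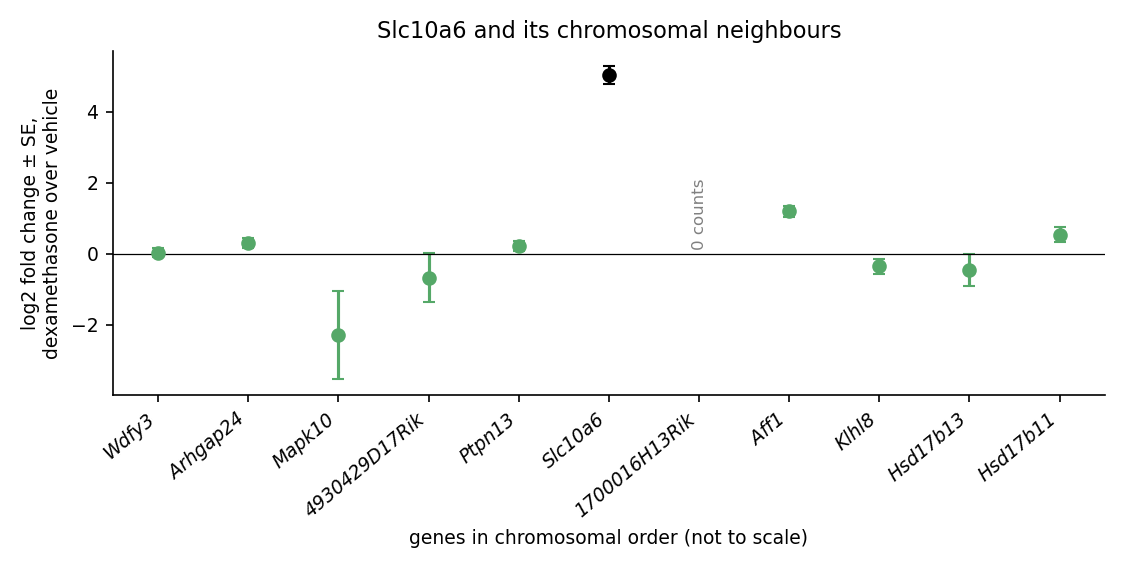
Fitted log2 fold change of dexamethasone over vehicle with its SE for Slc10a6 (black) and the 5 genes on each side of it (green), in chromosomal order and not to scale. Slc10a6 stands at 5.03 and Aff1 at 1.20, and 1700016H13Rik had 0 counts.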

How the data were processed

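The authors deposited raw read counts per gene for 4 libraries in 1 table. The submitters' processing notes name TopHat2 2.0.13, SAMtools 1.1, HTSeq 0.6.1, DESeq2 1.18.1 and the build mm9, without roles. The strand setting and whether introns were counted are not given in the sources used here, and the labels name both a stranded total RNA and a stranded mRNA kit. The members and lists were chosen with earlier results of these data known.

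Of 23333 rows, 51 repeated a gene with all its counts and were used once, leaving 23282. Genes were filtered with filterByExpr (minimum count 10, minimum total 15), which left 13285, scaled by TMM and tested with edgeR 4.0.16 (quasi-likelihood, group as the only term, two-sided, Benjamini-Hochberg over all tested genes, threshold 0.05). The test was tried on simulated data with less spread than these libraries and no replicate effect, so nothing is read from that trial. Lengths and gene order came from GENCODE M21 (GRCm38), matched by Ensembl identifier; no coordinates were set against those of the counts. Promoter windows came from RefSeq (GRCm38.p6). Intervals are 95%: exact Poisson or Clopper-Pearson for counts and ratios, Wilson for shares.

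Named genes were the members, the 6 nearest profiles, 5 neighbours on each side of Slc10a6 and 2 of the other tested members, the 3 largest values in each direction per list (5 for solute carriers) and Nr3c1. Alternatives were DESeq2 size factors, library size only, no filter beyond 1 count, DESeq2 1.42.0 (Wald test), limma-voom (limma 3.58.1), the replicate number as a block, whole gene span, and leaving out each library.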

Additional observations from a re-analysis of the deposited data

How the results depend on the processing

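The log2 fold change of Slc10a6 was between 4.96 and 5.04 under every alternative that kept all 4 libraries, and ran from 4.84 to 5.19 when single libraries were left out, lowest without dexamethasone replicate 1. That of Slc10a7 changed sign with DESeq2 size factors (-0.0023) and library size only (-0.026), and ran from -0.18 (without dexamethasone replicate 2; -0.15 without vehicle replicate 1) to 0.20. That of Slc10a3 ran from -0.0013 (without dexamethasone replicate 1) to 0.13. Neither was past the threshold in any of these fits (adjusted p of at least 0.900).

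Against 5 genes higher and 0 lower in edgeR, no filter beyond 1 count gave 23 higher, DESeq2's Wald test 241 and 56, the replicate block 913 and 768, and limma-voom 0. At an unadjusted p under 0.05 edgeR had 543 higher and 225 lower. Leaving out single libraries gave 4 to 84 higher and 0 to 109 lower, most without vehicle replicate 2; there a lone library is assumed to vary like the other group. The steroid and bile acid lists had 0 calls in each direction except with the replicate block, which gave 6 higher and 4 lower. The cause was not tested.

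What the replicate number marks is not given in the labels, and pairing cannot be settled from 2 pairs. Differences between the numbers correlated across treatments over 13285 genes (r = 0.734, across genes, which are not replicates). The replicate block leaves 1 residual degree of freedom. With it Slc10a6 was at 4.97, Slc10a3 at 0.04 and Slc10a7 at 0.01. Slc10a1, Slc10a2, Slc10a4 and Slc10a5 have no fitted value, being too low for the filter. Levels per kilobase moved with whole gene span as given above. Depth limits the vehicle level of Slc10a6, which rests on 14 and 27 counts.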
